A study of Mus musculus with 6 samples.

Results

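The osteoclast is the bone-resorbing cell of the macrophage lineage, and the genes described here are 10 that mark its differentiation, namely the receptor Tnfrsf11a, the transcription factors Nfatc1 and Mitf, the fusion genes Dcstamp and Ocstamp, the costimulatory receptor Oscar, the resorption genes Car2, Ctsk and Acp5, and the calcitonin receptor Calcr. A gene was read at probes to which the platform annotation assigns that symbol alone, and at the brightest of them (highest mean log2 intensity over all 6 samples) where it had several. Of the 10 genes 8 were measured, by 9 probes, out of 13840 genes and 14411 probes with a sole symbol. No probe was matched to Acp5 or Oscar, which were not analysed here. The cells were RAW 264.7, a mouse macrophage-like line that can form osteoclasts. In 3 samples 40 μM 15(S)-HETE, a hydroxylated arachidonic acid product, was added immediately before 1 μg/mL of the bacterial endotoxin LPS (15-HETE + LPS), and 3 samples received that LPS alone (LPS). RNA was taken at 24 h, and every sample pooled 6 wells of 1 plate. Serum was 5% for all samples by the labels, which differs from the percentage that the methods give for the growth medium. The labels and methods name no RANK ligand among the additions and no sample here was without LPS, so the comparison concerns LPS-stimulated cells of a single line that were not driven towards osteoclasts.

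Osteoclasts form when macrophage precursors are kept alive by M-CSF and receive RANK ligand. The ligand binds RANK, the product of Tnfrsf11a, which recruits TRAF6 and activates NF-κB, MAP kinases and, through calcium and calcineurin, NFATc1. NFATc1 acts with MITF, PU.1 and AP-1 on the genes for fusion and resorption, and osteoprotegerin, the product of Tnfrsf11b, is a decoy that captures the ligand. Lipopolysaccharide also acts on osteoclast precursors.

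Values are quantile-normalized intensities, whose median was 837 in the 6 samples, and changes are log2 fold changes of 15-HETE + LPS over LPS from limma, with calls at a Benjamini-Hochberg adjusted p under 0.05 over 33012 probes. Over the array 0.509% of probes were called higher and 0.442% lower, 19.6% had an unadjusted limma p under 0.05, and the median log2 fold change was 0.0073. With a prior variance that follows intensity (the intensity trend), 3.87% of probes were called higher and 4.96% lower. Macrophage markers were bright, with 11 of 14 measured. Their summed intensity was 4246770 to 4423470 in 15-HETE + LPS samples and 2975560 to 3821450 in LPS samples. Most of it came from Lyz2 (2536178 to 2647746 and 1698875 to 2329593), which was not called (adjusted p = 0.464 from limma). Of these markers 11 of 11 lay above 0 (median log2 fold change 0.30, and 9 to 11 above 0 with single samples left out), with 1 called. The part of this shift in the results was not tested, and scaling the samples to these markers lowers every log2 fold change by 0.23. That scaling called 219 of the 33012 probes higher and 1124 lower. Of 13 osteoblast and stromal markers, 10 dendritic cell markers and 6 melanocyte markers, the last of interest because Mitf is also a melanocyte gene, 0 were called in either direction, while 1, 2 and 0 had an unadjusted limma p under 0.05 and the intensity trend called 0, 1 (Ly75, lower, also called under marker scaling) and 0. Their summed intensities were 16380 to 18189, 117303 to 134367 and 3150 to 3735 in 15-HETE + LPS samples, against 16949 to 18763, 92853 to 117120 and 2813 to 3403 in LPS samples. Most of the dendritic cell sum came from Cd83. In the same order, 5, 7 and 5 of the markers lay below the array median. Which arrays were hybridized together is not given in the sources used here, so array set and treatment cannot be told apart. The labels call the replicates biological and do not say whether they were cultured on separate days.

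Of the 8 measured osteoclast genes, Car2 was called higher and 0 were called lower (0.509% and 0.442% of all probes). The median log2 fold change of the 8 was 0.0040, with 4 above and 4 below 0, and it was -0.23 with samples scaled to macrophage markers. The groups did not overlap for 4 genes, Car2 and Ocstamp being higher and Dcstamp and Calcr lower after 15-HETE, whereas 30.0% of all probes did not overlap, 13.7% higher and 16.3% lower. These 4 genes also had an unadjusted limma p under 0.05, which 19.6% of all probes reached. With 3 samples against 3, an exact permutation test (two-sided) gave p = 0.1 for each of the 4, the smallest it allows. When the prior variance of limma followed intensity (the intensity trend), Car2 was again the gene called, 1 of 8, while 3.87% of probes were called higher and 4.96% lower.

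**Figure D1:**
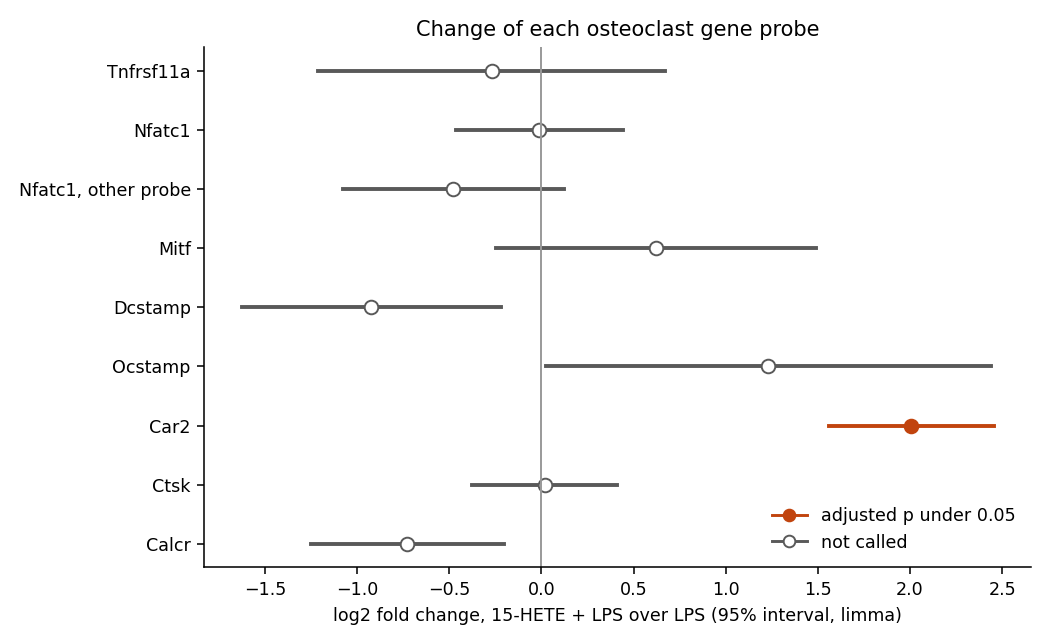
Log2 fold change (x axis) of 15-HETE + LPS over LPS for each osteoclast gene probe, with 95% intervals from limma. Car2 lies at 2.01 with an interval far from 0, Ctsk and the brighter Nfatc1 probe lie next to 0, and Dcstamp and Ocstamp lie on opposite sides of 0 without being called.

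Car2 encodes the cytosolic carbonic anhydrase II, which supplies the protons that osteoclasts secrete onto bone. Its intensity was 7781, 9668 and 7893 in the 15-HETE + LPS samples, against 2155, 1942 and 2186 in the LPS samples. Every treated sample thus lay more than 3-fold above every LPS sample, with tight replicates on both sides. The means were 8448 ± 1059 and 2095 ± 133 (SD, n = 3 each) in 15-HETE + LPS and LPS cells. Car2 rose 4.02-fold, a log2 fold change of 2.01 (95% interval 1.56 to 2.45, adjusted p = 0.0327 from limma), and its p was the 25th lowest of the 33012 probes. The fold in single treated samples over the LPS mean ran from 3.72 to 4.62. Leaving out each sample in turn kept the log2 fold change of Car2 between 1.91 and 2.06, but limma then called 0 probes of the whole array, Car2 included (its adjusted p was 0.0677 to 0.184). With the intensity trend Car2 was called in all 6 of these fits (adjusted p = 4.87e-05 to 0.00897).

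Ctsk encodes cathepsin K, the collagen-degrading protease of the resorption pit. It had the brightest probe of the group and the steadiest values, at 32557, 32099 and 34907 in 15-HETE + LPS samples and 32734, 32636 and 32841 in LPS samples. The groups overlapped, since the treated values lay on both sides of the close LPS values. The log2 fold change of Ctsk was 0.02 (standard error 0.16, adjusted p = 0.961 from limma), and its 95% interval of -0.37 to 0.41 leaves out changes of the size seen for Car2. With samples scaled to macrophage markers it was -0.21.

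The 250 bases before the Ctsk start site are shown because the factors known to act on this gene were also on the array. They lie at chr3:95498960-95499209 (GRCm38.p6, plus strand, from RefSeq) and capitals mark the letters GAGGAA, a core bound by PU.1, on either strand.
Ctsk: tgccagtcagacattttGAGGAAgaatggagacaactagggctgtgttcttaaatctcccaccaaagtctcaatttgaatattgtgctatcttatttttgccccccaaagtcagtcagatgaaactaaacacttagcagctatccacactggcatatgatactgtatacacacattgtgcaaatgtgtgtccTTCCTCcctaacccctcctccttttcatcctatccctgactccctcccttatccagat
In the whole window of 300 bases, which ends 50 bases past the start, there were 2 matches to GAGGAA (28.3% of 32851 promoter windows hold at least 1), 1 match to the NFAT core GGAAA at the start site itself, just after the stretch shown (61.3%), and 0 to the AP-1 letters TGANTCA (7.81%) or to the E-boxes CACGTG (7.15%) and CATGTG (14.2%). Both strands were searched, and a match is a description of letters only. The gene of PU.1, Spi1, had 234570, 228937 and 206518 in 15-HETE + LPS samples and 199093, 166844 and 171730 in LPS samples, higher without overlap but not called (log2 fold change 0.32, adjusted p = 0.378 from limma). The promoter table held 6 of the 10 genes, and Car2, Dcstamp, Ocstamp and Nfatc1 are not among them. Every window of Tnfrsf11a, Calcr, Mitf and Acp5 had 0 matches to GAGGAA, and that of Oscar had 2.

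Tnfrsf11a, the receptor at the head of the pathway, varied as much among replicates as between groups. It had 3399, 1556 and 1618 in 15-HETE + LPS samples and 3324, 2443 and 1845 in LPS samples. The first replicate of each group was the highest, and the groups overlapped. The log2 fold change of Tnfrsf11a was -0.27 with a wide 95% interval of -1.21 to 0.67 (adjusted p = 0.739 from limma). It was -0.64 without 15-HETE + LPS replicate 1 and -0.05 without LPS replicate 1.

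Nfatc1, the transcription factor that commits precursors to the osteoclast fate, was read by 2 probes. At the brighter probe it had 4808, 3722 and 3808 in 15-HETE + LPS samples and 4115, 4216 and 4017 in LPS samples. The LPS values lay between the highest and the other treated values, so the groups overlapped. Its log2 fold change was -0.01 (95% interval -0.46 to 0.44, adjusted p = 0.981 from limma), and the sign turned when certain single samples were left out. The other Nfatc1 probe, annotated to another transcript of the gene, had 2774, 2662 and 2780 in 15-HETE + LPS samples and 5279, 3294 and 3193 in LPS samples. There the groups did not overlap, with LPS replicate 1 far above the other LPS samples. The log2 fold change at this probe was -0.48 (95% interval -1.08 to 0.12, adjusted p = 0.346 from limma). Neither probe of Nfatc1 was called, and the difference between them was not tested.

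Mitf, a transcription factor that in osteoclasts acts on Acp5 and Ctsk, had 4027, 1829 and 2795 in 15-HETE + LPS samples and 2377, 1715 and 1388 in LPS samples. The treated values spread widely, and the lowest of them lay below the highest LPS value. Its log2 fold change of 0.62 did not pass (95% interval -0.25 to 1.49, adjusted p = 0.393 from limma) and was 0.34 without 15-HETE + LPS replicate 1.

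Dcstamp and Ocstamp encode multipass membrane proteins that are both needed for precursors to fuse into multinucleate osteoclasts. Dcstamp had 830, 1073 and 1296 in 15-HETE + LPS samples and 2290, 2396 and 1433 in LPS samples. All treated values were lower, although the highest of them came close to LPS replicate 3. Its log2 fold change was -0.92 (95% interval -1.62 to -0.22, adjusted p = 0.161 from limma), which did not pass.

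Ocstamp had 1002, 1356 and 3774 in 15-HETE + LPS samples and 639, 745 and 832 in LPS samples. All treated values were higher, and treated replicate 3 stood far above the other treated samples. The log2 fold change of Ocstamp was 1.23 (95% interval 0.02 to 2.44, adjusted p = 0.248 from limma), and 0.67 without 15-HETE + LPS replicate 3. The fusion genes thus lay on opposite sides of 0. The log2 fold change of Ocstamp exceeded that of Dcstamp by 2.15 (SD of the log2 difference between the probes 0.72 in 15-HETE + LPS and 0.57 in LPS samples, n = 3 each). An exact permutation test over the samples gave a two-sided p = 0.1 for it, the smallest possible, and the pair was compared after its values were seen.

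Calcr encodes the calcitonin receptor, through which calcitonin halts resorption by mature osteoclasts. It had 204, 232 and 253 in 15-HETE + LPS samples and 306, 440 and 405 in LPS samples. All treated values were lower, but this was the dimmest of the 8 probes and the only 1 below the array median, with 14.7% of probes dimmer. Detection calls were not used here, so whether Calcr lay above background was not tested. Its log2 fold change of -0.73 (95% interval -1.25 to -0.20, adjusted p = 0.148 from limma) did not pass.

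**Figure D2:**
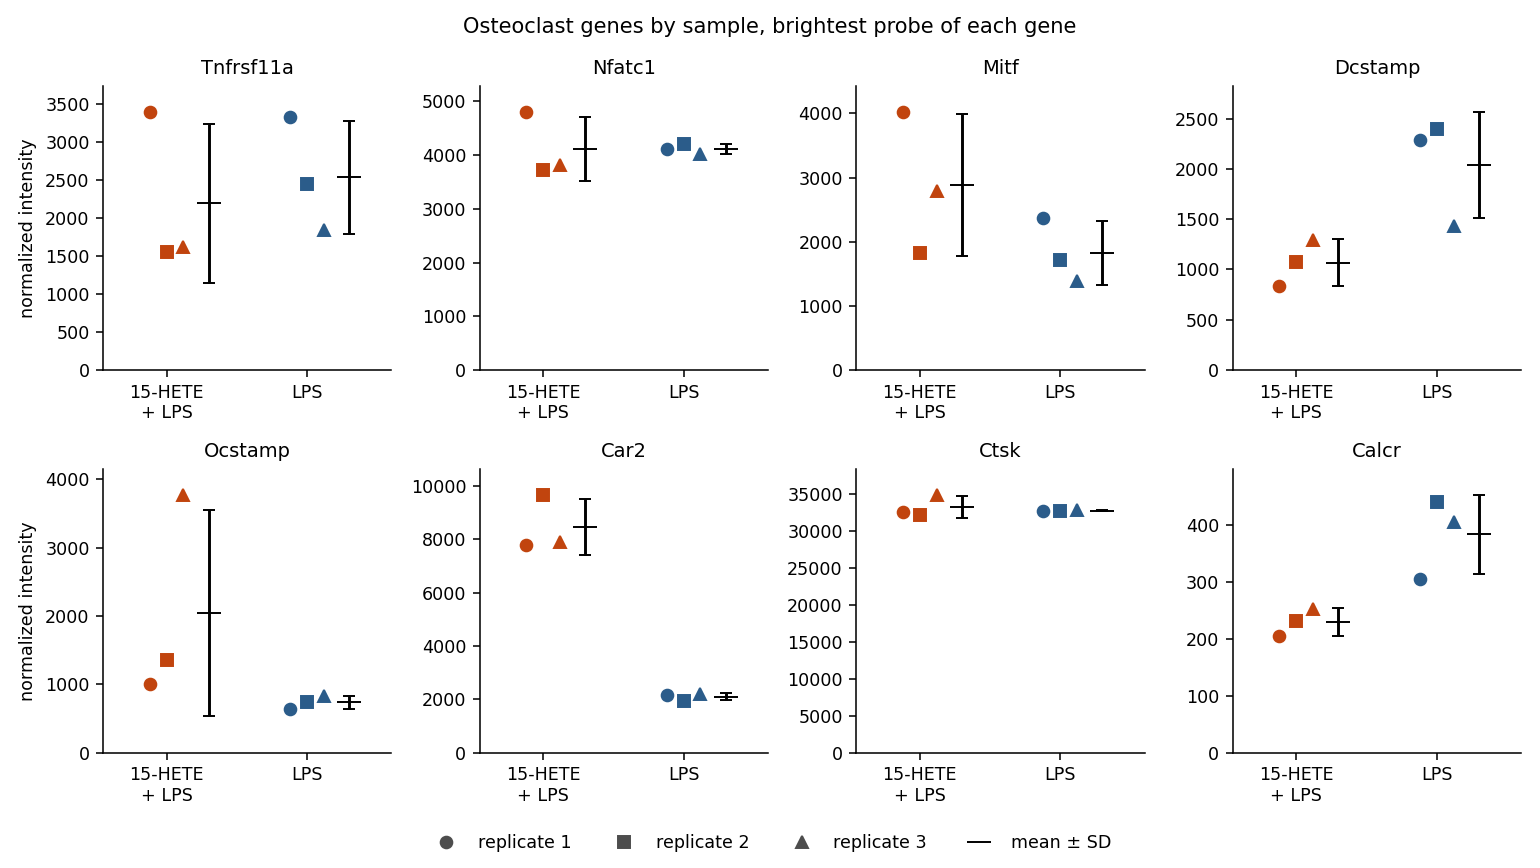
Normalized intensity (y axis, linear, from 0) of the 8 measured osteoclast genes in each 15-HETE + LPS sample (left) and LPS sample (right), with the mean ± SD beside them. The groups stand apart for Car2 and, with less distance, for Dcstamp, Ocstamp and Calcr, and single treated samples stand out for Ocstamp (3774), Mitf (4027) and Tnfrsf11a (3399).

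Around these genes, 26 of 30 listed genes of RANK and costimulatory signalling were measured, and 3 rose and 0 fell (0.509% and 0.442% of all probes). Tab2, an adaptor that links TRAF6 to the kinase TAK1, had 9274, 10198 and 9091 in 15-HETE + LPS samples and 3111, 1883 and 2230 in LPS samples (log2 fold change 2.01, adjusted p = 0.0368 from limma). Ppp3r1, the regulatory subunit of calcineurin, the phosphatase that activates NFATc1, had 14039, 11724 and 13155 in 15-HETE + LPS samples and 4913, 5256 and 4408 in LPS samples (log2 fold change 1.42, adjusted p = 0.0424 from limma). Mapk14, the kinase p38α, rose with a log2 fold change of 1.12 (adjusted p = 0.0498 from limma). In contrast to these members, the list had a median of -0.10, with 12 genes above and 14 below 0. Traf6 itself had 16237, 15624 and 18012 in 15-HETE + LPS samples and 31609, 22142 and 23409 in LPS samples, lower without overlap but not called (log2 fold change -0.61, adjusted p = 0.188 from limma, and -0.14 at its other, dimmer probe). The gene of RANK ligand, Tnfsf11, had 474, 334 and 165 in 15-HETE + LPS samples and 116, 521 and 61.3 in LPS samples, and only 2.45% of probes were dimmer. With the intensity trend 6 genes of the list were higher and 5 lower, against 3.87% and 4.96% of all probes. With samples scaled to macrophage markers 3 were higher and 2 lower (Jund, adjusted p = 0.04003, and Blnk, adjusted p = 0.0482, from limma), and the median was -0.33. Of all 33012 probes this scaling called 219 higher and 1124 lower.

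Of 26 listed inhibitors of osteoclast formation 20 were measured, and 1 fell and 0 rose (0.442% and 0.509% of all probes). The gene that fell was Tnfrsf11b, the osteoprotegerin gene, with 372, 338 and 410 in 15-HETE + LPS samples against 1332, 1349 and 1350 in LPS samples. The LPS values were nearly equal, and every treated value lay more than 3-fold below them. The log2 fold change of Tnfrsf11b was -1.85 (95% interval -2.27 to -1.43, adjusted p = 0.0327 from limma, and 0.0128 with the intensity trend). Leaving out each sample in turn kept it between -1.92 and -1.78, and with the intensity trend it was called in 4 of these 6 fits, but not without LPS replicate 3 (adjusted p = 0.0658) or LPS replicate 2 (adjusted p = 0.0619). By its mean over all 6 samples its probe was close to the array median, with 49.4% of probes dimmer. The treated values lay below the median intensity of 837. Without detection calls, whether the treated values lay above background was not tested. The list as a whole had a median of 0.08, and of -0.07 without 15-HETE + LPS replicate 2. Scaling to macrophage markers gave a median of -0.15 and 3 genes lower, against 1124 lower of all 33012 probes. These genes were Tnfrsf11b, Il12a (adjusted p = 0.0329) and Nfkb2 (adjusted p = 0.0444, both from limma). The intensity trend called 1 gene higher and 5 lower, against 3.87% and 4.96% of all probes.

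In the list of acid secretion, resorption and the ruffled border, the folded membrane through which acid and proteases leave the cell, 25 of 29 genes were measured, and 2 fell and 0 rose (0.442% and 0.509% of all probes). Mmp9, a gelatinase abundant in osteoclasts, had 15343, 15167 and 13058 in 15-HETE + LPS samples and 92440, 63342 and 57525 in LPS samples (log2 fold change -2.26, adjusted p = 0.0339 from limma). The membrane-bound collagenase Mmp14 had 95430, 72113 and 77882 in 15-HETE + LPS samples and 430892, 302973 and 278267 in LPS samples (log2 fold change -2.03, adjusted p = 0.0386 from limma). Both proteases thus fell about as far as Car2 rose, while Ctsk stayed near 0. The other 23 genes, among them the proton pump subunits, were not called, and the median of the list was -0.13, with 9 above and 16 below 0. Without LPS replicate 1 the median was 0.04, with 13 above and 12 below 0. With the intensity trend 1 gene was higher and 3 lower, against 3.87% and 4.96% of all probes. With samples scaled to macrophage markers 1 was higher (Ptk2b, adjusted p = 0.0421 from limma) and 3 were lower (Slc4a2, adjusted p = 0.0370, beside Mmp9 and Mmp14), and the median was -0.37. Over the array that scaling called 219 probes higher and 1124 lower, of 33012.

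**Figure D3:**
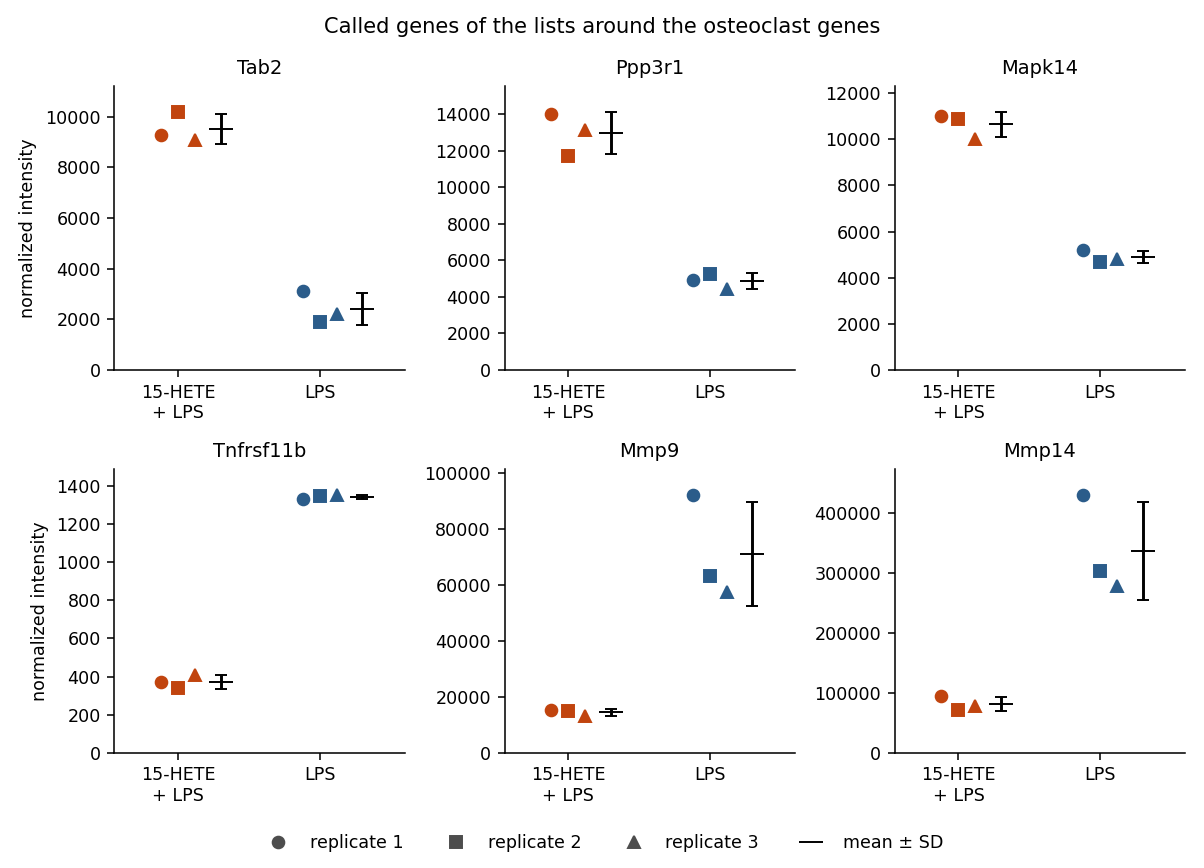
Normalized intensity (y axis, linear, from 0) of 6 called genes from the lists around the osteoclast genes, in 15-HETE + LPS samples (left) and LPS samples (right), with the mean ± SD. Tab2, Ppp3r1 and Mapk14 lie higher and Tnfrsf11b, Mmp9 and Mmp14 lower in all 3 treated samples.

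Of 20 genes of cell fusion and adhesion 17 were measured and 0 were called, while 7 had an unadjusted limma p under 0.05 (19.6% of all probes). With the intensity trend 4 genes of this list were higher and 1 was lower, against 3.87% and 4.96% of all probes. The median of the list was 0.52, with 13 genes above and 4 below 0, against 0.0073 over all probes, and it was 0.28 with samples scaled to macrophage markers. It was 0.36 without 15-HETE + LPS replicate 1 and 0.54 without LPS replicate 1. The lowest p belonged to Pstpip2, a membrane-bending F-BAR protein (log2 fold change 1.19, adjusted p = 0.0708 from limma), the tetraspanin Cd81 (0.76, adjusted p = 0.0977) and Atp6v0d2, a proton pump subunit that also takes part in osteoclast fusion (0.57, adjusted p = 0.1501). Atp6v0d2 had 45095, 51294 and 43918 in 15-HETE + LPS samples and 32195, 29718 and 32416 in LPS samples, without overlap.

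Of 13 genes of the M-CSF axis and partner transcription factors 11 were measured and 0 were called, with 2 at an unadjusted limma p under 0.05 (19.6% of all probes). These were Tfeb, a relative of Mitf (log2 fold change -0.70, adjusted p = 0.135 from limma), and the nuclear receptor Esrra (0.54, adjusted p = 0.163). Pparg, a nuclear receptor, had 293, 883 and 409 in 15-HETE + LPS samples and 1678, 707 and 945 in LPS samples, which overlapped (log2 fold change -1.14, adjusted p = 0.282). The intensity trend called 1 higher and 1 lower, against 3.87% and 4.96% of all probes. Scaling to macrophage markers called 1 lower (Tfeb, adjusted p = 0.0499 from limma), against 1124 lower of all 33012 probes. No probe was matched to Csf1 or Csf1r, which were not analysed here.

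**Figure D4:**
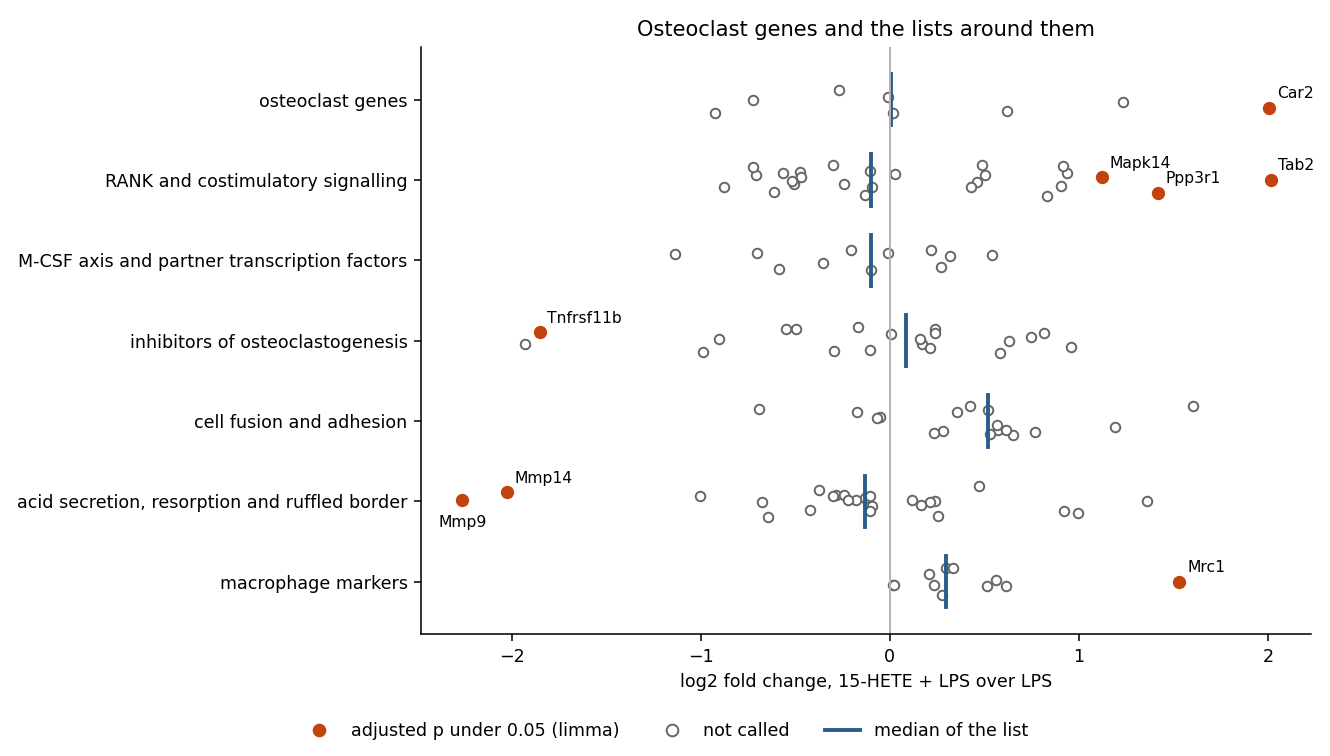
Log2 fold change (x axis) of 15-HETE + LPS over LPS for each measured gene of the osteoclast genes and 6 lists, with called genes filled and named and the median of each list as a bar. Called genes stand at both ends of the axis, Car2 and Tab2 highest (2.01 each) and Mmp9 lowest (-2.26), and list medians lie between -0.13 and 0.52.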

How the data were processed

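Total RNA of RAW 264.7 cells (3 samples per group) was labelled and hybridized to ABI mouse genome survey arrays with 1 chemiluminescent signal per probe. The authors deposited linear intensity values after primary analysis in the AB1700 software and quantile normalization, per the methods. The deposited table holds 33012 probes with no filter applied. Background correction and the genome build are not given in the sources used here, so no coordinates were attached to probes. Intensities were turned to log2 and fitted with limma 3.58.1 in R 4.3.3 (lmFit, eBayes, two-sided). Promoter windows came from RefSeq (GRCm38.p6), and 9 of 9 member probes matched RefSeq by gene id. Precision is limited by having 3 arrays a group. The members and lists were chosen with earlier results of these data known. Named were the members and, in each list, the called genes or else the 3 with the lowest p (other genes named were chosen after their values were seen). Values for the marker lists of osteoblasts, dendritic cells and melanocytes are given as sums and, for their lowest p and for Cd83, among the closing observations. The fit was run on simulated arrays with independent normal noise, as a check of its error and interval coverage only. That run does not show how far the calls in these data hold. Alternatives were other variance priors, the methods' t-test, the study's thresholds (here a limma adjusted p of at most 0.025 and the fold rule, 1.8-fold in at least 2 treated samples over the LPS mean), other scalings, an offset of 100, bright probes only, the replicate number as a block, other probes, and leaving out each sample.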

Additional observations from a re-analysis of the deposited data

How the results depend on the processing

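The array called 168 probes higher and 146 lower. The counts were 1279 and 1638 with the intensity trend, 100 and 62 with robust empirical Bayes, 345 and 358 with log2(value + 100), and 1207 and 1589 with bright probes only, and Car2 was the called member under each (the last leaves out Calcr). Scaling to macrophage markers called 1124 lower, put the share of calls that were higher at 16.3% against 53.5%, moved the median of all probes by -0.23 and that of the members to -0.23, and turned Ctsk to -0.21. The share was 63.0% with cyclic loess, which turned Nfatc1 to 0.045. The study's thresholds, applied here to the adjusted p of limma, called 0 probes and 0 members. No probe could pass them, as the smallest adjusted p from limma was 0.0289. The study itself used a t-test on probes past its fold rule. The methods' t-test over all probes called 0 probes higher, 0 lower and 0 members (Car2 adjusted p = 0.0924 by that t-test), and it had 3168 probes at an unadjusted p of at most 0.025. Over probes past the fold rule it called 50 higher and 38 lower, Car2 among them. With the replicate block 0 probes and 0 members were called (Car2 adjusted p = 0.207). Same-numbered samples did not deviate together across the array (correlations across probes -0.024, 0.0035 and 0.024). Such correlations cannot show whether they shared a culture or a day, which the labels do not give. Without any 1 sample limma called 0 higher, 0 lower and 0 members, the median of the members ran from -0.05 to 0.05, Ctsk ran from -0.018 to 0.042 (below 0 without 15-HETE + LPS replicate 3) and Nfatc1 from -0.13 to 0.056 (above 0 without 15-HETE + LPS replicate 2, 0.056, or 3, 0.04, and without LPS replicate 2, 0.0067). Combining the intensity trend with leaving out a sample, and list medians without a sample, were added after seeing the data. With the trend, leaving out 15-HETE + LPS replicate 1, 2 or 3 gave 604, 535 or 624 higher and 795, 688 or 938 lower, leaving out LPS replicate 1, 2 or 3 gave 2595, 716 or 727 higher and 2540, 769 or 798 lower, and each fit called 1 member, Car2. The causes were not tested. With no detection calls, the dim Calcr probe is the least certain.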

Other observations

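The other carbonic anhydrase genes were looked at after the value of Car2 was seen. Of 14 with a probe 0 were called by limma and 2 with its intensity trend (Car4 and Car5b, adjusted p = 0.0125 and 0.0417, both higher, against 3.87% of all probes), 3 had an unadjusted p under 0.05 (19.6% of all probes), and their log2 fold changes ran from -0.64 to 0.91. The membrane-anchored Car4 had the highest (0.91, adjusted p = 0.0988 from limma), followed by Car15 (0.84, adjusted p = 0.226) and the mitochondrial Car5b (0.70, adjusted p = 0.147). The difference between Car2 and these genes was not tested.

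Among macrophage markers, the mannose receptor Mrc1 rose. It had 12513, 10846 and 10148 in 15-HETE + LPS samples and 4217, 3838 and 3529 in LPS samples (log2 fold change 1.53, adjusted p = 0.0395 from limma). Among the markers of other cell types the lowest p belonged, for dendritic cells, to Ly75, an endocytic receptor (log2 fold change -1.86, adjusted p = 0.0801), Batf3 (0.47, adjusted p = 0.206) and Ccr7 (0.75, adjusted p = 0.384). For osteoblasts and stroma they were Ibsp, a bone matrix protein (0.74, adjusted p = 0.204), Col3a1 (0.48, adjusted p = 0.388) and Col1a1 (-0.49, adjusted p = 0.498), and for melanocytes Tyr (0.69, adjusted p = 0.292), Pmel (-0.48, adjusted p = 0.737) and Mc1r (0.21, adjusted p = 0.825). The groups did not overlap for 3 of 10 dendritic cell, 1 of 13 osteoblast and stromal and 0 of 6 melanocyte markers (30.0% of all probes). Cd83, the brightest of the dendritic cell markers, had 106700, 121821 and 104268 in 15-HETE + LPS samples. In LPS samples it had 103195, 81580 and 83789. The markers without overlap were Ly75 (lower), Batf3, Cd83 and Ibsp (all higher), and none of them passed in this fit. Under the intensity trend Ly75 did pass, lower, at an adjusted p of 0.0363, as it did after scaling to macrophage markers (0.0482).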
